A study of Homo sapiens with 6 samples.

Results

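The nuclear-encoded genes of the respiratory chain were compared between DMS53 cells with and without enforced expression of ONECUT2 (OC2), a CUT-homeobox transcription factor. They were chosen by gene symbol, as genes of complexes I to V (NDUF, SDH, UQCR, UQCC, COX and ATP5 names), leaving out symbols with a hyphen and names of numbered pseudogenes, which gave 103 genes of the 62696 in the count tables. The pattern matched 291 symbols before those exclusions. DMS53 is an established human small cell lung cancer (SCLC) line of neuroendocrine (NE) type. Both groups were transduced with lentivirus packaged in HEK-293 cells (HEK-293T in the study's methods), selected with puromycin and grown in RPMI-1640 with serum. The control group (n = 3) received the empty plasmid, and the OC2-OE group (n = 3) received the plasmid that expresses OC2 constitutively, as an open reading frame with an mGFP tag. Samples were described as independent RNA-Seq experiments, and separate transductions were not stated, so p-values measure the spread between these libraries, which may be technical. One cell line is studied, and in bulk RNA fewer cells of a type and less RNA per cell cannot be told apart.

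The respiratory chain sits in the inner mitochondrial membrane. Complex I (NADH dehydrogenase) and complex II (succinate dehydrogenase) pass electrons to coenzyme Q, complex III passes them on to cytochrome c, and complex IV (cytochrome c oxidase) reduces oxygen. Complexes I, III and IV pump protons, and complex V (ATP synthase) uses the gradient to make ATP. Complexes I, III, IV and V combine subunits made from nuclear genes with subunits encoded in mitochondrial DNA, whereas complex II is made from nuclear genes alone. Assembly factors, such as the NDUFAF and UQCC proteins, help to build the complexes without staying in them.

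The libraries held 16533284 to 19099337 counted read pairs. The check of the labels held: ONECUT2 (chr18:57435374-57491298) had 465, 412 and 394 counts in control and 74031, 68853 and 72763 in OC2-OE, and these counts do not separate the vector's transcript from that of the cell's own gene. All 8 NE markers checked were detected. CHGA, UCHL1, ENO2 and SCG2 were higher in OC2-OE and CHGB, SYP, INSM1 and NCAM1 were lower. The summed level of 6 fibroblast markers was 21.2 to 23.9 CPM (counts scaled to a common library size) in control and 28.1 to 32.1 CPM in OC2-OE. That of 6 leukocyte markers was 0.492 to 0.749 CPM and 2.19 to 2.74 CPM, with CD3E at 0 counts, and that of 5 endothelial markers was 12.7 to 15 CPM and 4.17 to 4.73 CPM, with EMCN at 0 counts. The part of other cell types in the results was not tested.

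Transcripts of the respiratory chain were mostly lower in OC2-OE cells. Of the 103 genes, 96 had enough counts to be tested, and 66 of these (68.8%) were called lower and 5 (5.21%) higher at an adjusted p under 0.001 (edgeR's quasi-likelihood test, Benjamini-Hochberg over all genes tested). Among all 17307 genes tested, 28.7% were called lower and 27.8% higher, 56.5% in all. Genes expressed within the middle range of the members' levels were called lower in 38.6% and higher in 31.3% of cases. The other 25 members did not pass the threshold. The changes were small. The median log2 fold change (OC2-OE over control) was -0.24, a fall by 15.1%, against 0.01 over all genes tested, and no member reached an absolute log2 fold change of 1. All 3 OC2-OE libraries lay below all 3 control libraries for 71 of the 96 tested members, against 36.7% of all genes tested. They lay above for 8 members, against 36.5% of all genes.

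**Figure D1:**
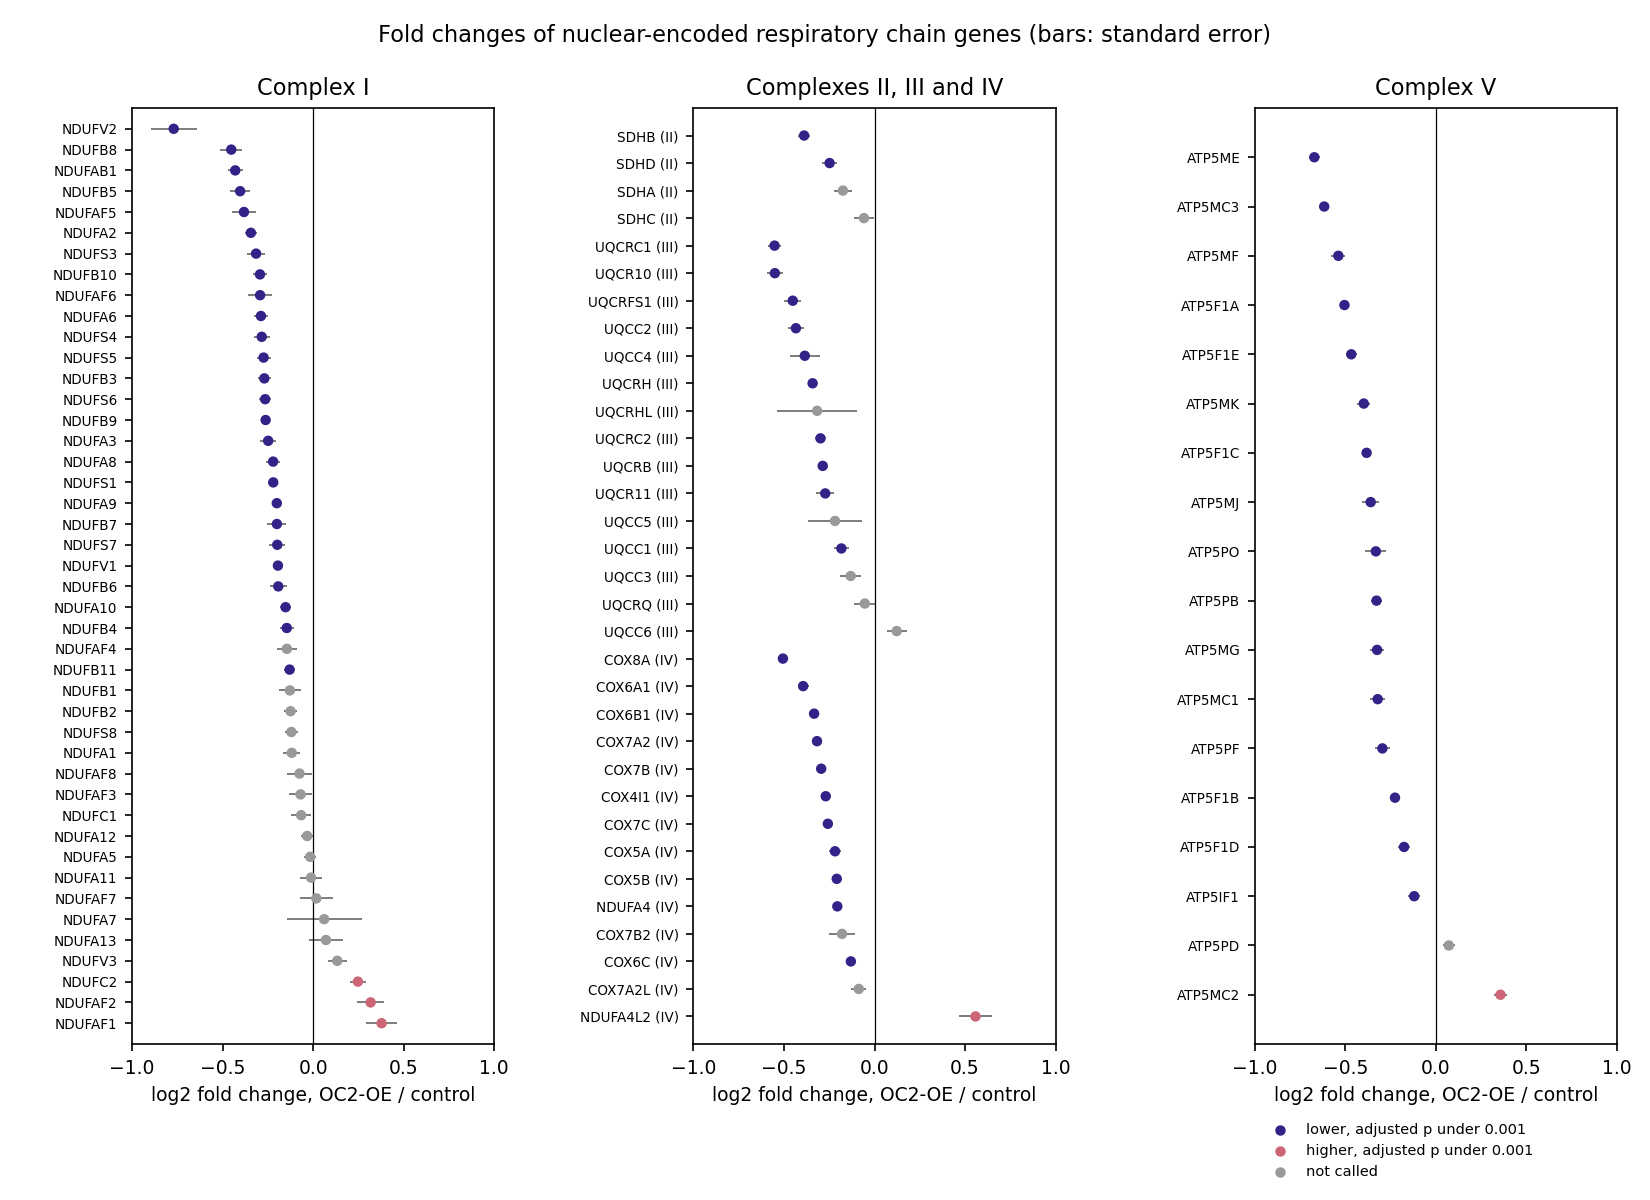
Log2 fold change (OC2-OE over control, horizontal axis) of the tested genes that are reported by name, by complex, with bars for the standard error and colours for the call at an adjusted p under 0.001. Most points lie left of 0, and the 5 called higher are NDUFAF1, NDUFAF2, NDUFC2, NDUFA4L2 and ATP5MC2.

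The summed level of the nuclear-encoded genes of each complex was lower in OC2-OE. Together the 103 genes took up 1.35% ± 0.0118 (SD, n = 3) of all counts in control and 1.15% ± 0.00630 in OC2-OE. The sum over complex V was 5176, 5152 and 5131 CPM in control against 4051, 4024 and 4056 CPM in OC2-OE, a ratio of 0.785. The ratios were 0.811 for complex III, 0.825 for complex II, 0.829 for complex IV and 0.876 for complex I. In each of the 5 sums all OC2-OE libraries were below all control libraries. Subunits and assembly factors were also counted apart. Of 82 tested subunits and isoforms 61 (74.4%) were called lower and 3 (3.66%) higher, with a median log2 fold change of -0.26. Of 14 tested assembly factors 5 (35.7%) were called lower and 2 (14.3%) higher, with a median of -0.14. Over all genes tested the shares were 28.7% and 27.8%. The assembly factors were thus called lower at a share nearer to that of all genes, but higher at a smaller share. They also had fewer counts over the 6 libraries, with a median of 2606 against 10993 for the subunits and isoforms. The difference between subunits and assembly factors was not tested.

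**Figure D2:**
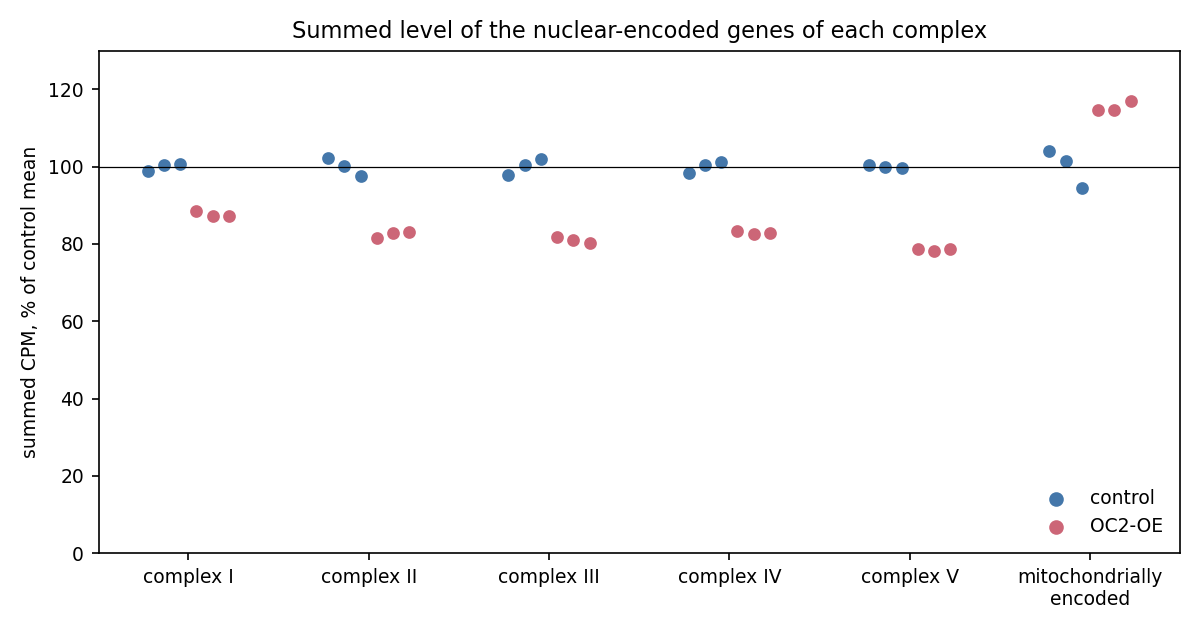
Summed CPM of the nuclear-encoded genes of each complex in every library as a percentage of the control mean (vertical axis), with the mitochondrially encoded subunits for comparison. The OC2-OE points of complexes I to V lie below those of the control, with the lowest ratio (0.785) in complex V, and those of the mitochondrially encoded subunits lie above.

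The start regions of these genes are known for sites of the nuclear respiratory factor NRF1 and of GABP, activators of many respiratory genes, so the bases before the start are shown for members that were called lower and for those with contrasting results. RefSeq start windows (250 bases before and 50 after a start, GRCh38.p14) were found for 82 of the 103 genes, 100 windows in all. The core letters CGCANGCG (NRF1) were found on either strand in 32 of these windows (32%), against 10.0% of all 35116 windows. CCGGAAGT (GABP) was in 12 windows (12%), against 4.14% of all, and AAGATGGC (YY1) in 16 (16%), against 2.89%. Of the 31 genes with the NRF1 letters, 30 were tested, of which 23 (76.7%) were called lower and 1 higher, beside 68.8% called lower among all tested members. Of the tested genes with the GABP letters 9 of 12 (75%) were called lower, and of those with the YY1 letters 12 of 14 (85.7%). With TATAAA it was 5 of 6 (83.3%). These shares were not tested against those of the other members. The ONECUT core ATCGAT was in 1 window (1%), against 0.763% of all, and TATAAA was in 7 (7%), against 11.5%. TCAAGGTCA (ERRA) was in 1 window (1%), against 0.353%. No match of one motif overlapped a match of another. A match describes the letters only and is not a measured binding site. In the following 120 bases before the RefSeq start, written 5′ to 3′ on the strand of the gene, capitals mark whole matches of these motifs on either strand. NDUFB4 (chr3:120596216-120596335, plus strand) has an NRF1 match, UQCR11 (chr19:1605463-1605582, minus strand) has GABP and NRF1 matches, COX8A (chr11:63974500-63974619, plus strand) has a GABP match and ATP5F1C (chr10:7788057-7788176, plus strand) has a palindromic NRF1 match, and all of these were called lower. SDHA (chr5:218200-218319, plus strand) repeats the NRF1 letters and did not pass the threshold. ATP5MC1 (chr17:48892667-48892786, plus strand) holds the ONECUT core at bases -62 to -57, counted back from -1 just before the start, and was called lower. ATP5MC2 (chr12:53676084-53676203, minus strand, the first of 3 starts listed) has a palindromic NRF1 match and was called higher.
NDUFB4: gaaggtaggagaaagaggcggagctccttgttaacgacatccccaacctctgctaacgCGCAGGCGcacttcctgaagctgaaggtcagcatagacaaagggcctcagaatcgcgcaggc
UQCR11: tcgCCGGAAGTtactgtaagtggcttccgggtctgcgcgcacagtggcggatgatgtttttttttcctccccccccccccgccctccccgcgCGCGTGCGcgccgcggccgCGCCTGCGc
COX8A: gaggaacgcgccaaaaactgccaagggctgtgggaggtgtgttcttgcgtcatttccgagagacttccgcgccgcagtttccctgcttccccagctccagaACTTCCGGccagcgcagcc
ATP5F1C: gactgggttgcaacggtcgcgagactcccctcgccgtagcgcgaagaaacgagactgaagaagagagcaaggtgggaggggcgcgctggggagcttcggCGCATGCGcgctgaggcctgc
SDHA: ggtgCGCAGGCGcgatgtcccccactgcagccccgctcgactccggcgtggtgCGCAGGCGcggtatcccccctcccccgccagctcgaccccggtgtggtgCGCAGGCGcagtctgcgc
ATP5MC1: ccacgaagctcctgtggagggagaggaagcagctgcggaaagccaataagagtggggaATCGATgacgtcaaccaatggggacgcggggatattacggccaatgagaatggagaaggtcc
ATP5MC2: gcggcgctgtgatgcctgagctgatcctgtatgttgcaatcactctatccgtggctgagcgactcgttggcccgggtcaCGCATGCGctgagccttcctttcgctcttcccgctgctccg

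In complex I, 27 of 45 tested genes (60%) were called lower and 3 (6.67%) higher, with a median log2 fold change of -0.19. The shares over all genes tested were 28.7% and 27.8%. Of its 7 nuclear-encoded core subunits, which carry the flavin and the iron-sulphur clusters or line the quinone pocket, 6 were called lower and 0 higher. NDUFV2 (chr18:9102630-9134345), which carries an iron-sulphur cluster next to the flavin, had 8.83, 7.11 and 8.61 CPM in control and 4.85, 4.44 and 5.10 CPM in OC2-OE. The groups did not overlap, and the log2 fold change was -0.77 ± 0.13 (SE, adjusted p = 5.65e-08), a fall by 41.3% and the largest among the tested members. NDUFV2 is a low-count gene in these data, 28.4% of its exon bases are shared with another gene on the same strand and 14.2% of the counts of it and its pseudogenes lay on the pseudogenes. NDUFS3, NDUFS1, NDUFS7 and NDUFV1 fell by 19.6%, 14.1%, 12.8% and 12.6%, and NDUFS7 missed the threshold without control replicate 3 (adjusted p = 0.00774) or OC2-OE replicate 2 (adjusted p = 0.00241). NDUFS8 had 123, 131 and 134 CPM against 121, 113 and 122 CPM and just missed the threshold (log2 fold change -0.12 ± 0.034, adjusted p = 0.00112), which it passed without control replicate 1 (adjusted p = 3.68e-05).

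Among the 30 accessory subunits of complex I, which surround the catalytic core, 19 (63.3%) were called lower and 1 (3.33%) higher. Of all genes tested, 28.7% were called lower and 27.8% higher. NDUFB8 (chr10:100523740-100530000), in the membrane arm, had 36.1, 36.9 and 35.2 CPM in control and 25.5, 27.0 and 26.6 CPM in OC2-OE, a log2 fold change of -0.45 ± 0.059 (SE, adjusted p = 2.76e-11), and 33.8% of its exon bases are shared with another gene on the same strand. NDUFAB1 (chr16:23581014-23596316), the mitochondrial acyl carrier protein, had 90.6, 87.5 and 84.9 CPM against 64.2, 64.3 and 66.9 CPM, a log2 fold change of -0.43 ± 0.041 (adjusted p = 4.49e-18). Both genes were lower in every OC2-OE library. NDUFC2 (chr11:78068297-78079862), a further subunit of the membrane arm, moved the other way, from 54.5, 56.5 and 55.5 CPM to 65.4, 64.2 and 68.0 CPM, a log2 fold change of 0.25 ± 0.044 (adjusted p = 4.07e-07). Of the exon bases of NDUFC2, 18.6% are shared with another gene on the same strand. The partner of NDUFC2, NDUFC1, did not pass the threshold, with a log2 fold change of -0.07.

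Of the 8 assembly factors of complex I, 2 (25%) were called higher and 2 (25%) lower, shares near those of all genes tested (27.8% and 28.7%). NDUFAF1 (chr15:41387218-41409403), which acts in building the membrane arm, had 12.8, 12.3 and 13.2 CPM in control and 16.8, 17.8 and 15.3 CPM in OC2-OE (log2 fold change 0.38 ± 0.085, adjusted p = 4.40e-05). NDUFAF2 (chr5:60945177-61154531), a paralog of NDUFA12 that is bound before the complex is finished, had 17.2, 16.7 and 18.6 CPM against 23.6, 20.4 and 21.3 CPM (log2 fold change 0.32 ± 0.075, adjusted p = 8.59e-05). The groups did not overlap for either gene. NDUFAF1 missed the threshold without OC2-OE replicate 2 (log2 fold change 0.33, adjusted p = 0.00150). NDUFAF2 missed it without control replicate 2 (0.28, adjusted p = 0.00185) and without OC2-OE replicate 1 (0.26, adjusted p = 0.00497). NDUFAF5 and NDUFAF6 were called lower, at log2 fold changes of -0.38 and -0.29.

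Complex II, which is shared by the respiratory chain and the TCA cycle, had 2 of its 4 genes (50%) called lower and 0 higher. With 4 genes this share says little beside the 28.7% called lower and 27.8% called higher among all genes tested. SDHB (chr1:17018722-17054032), the iron-sulphur subunit, had 163, 157 and 159 CPM in control and 119, 123 and 125 CPM in OC2-OE, a log2 fold change of -0.39 ± 0.032 (SE, adjusted p = 9.14e-22). SDHD (chr11:112086824-112120016), a membrane anchor, had 88.4, 88.1 and 82.6 CPM against 73.2, 72.8 and 72.3 CPM (log2 fold change -0.25 ± 0.040, adjusted p = 2.05e-08). Neither gene's groups overlapped. The flavoprotein SDHA (chr5:218303-257082) had 48.7, 51.5 and 45.6 CPM in control and 43.4, 43.4 and 42.4 CPM in OC2-OE, and at -0.17 ± 0.051 (adjusted p = 0.00143) it did not pass the threshold, which it passed without control replicate 3 (adjusted p = 2.35e-04). Of the exon bases of SDHA, 21.7% are shared with another gene on the same strand. The symbol pattern could match no pseudogene of SDHA, so the alternative with pseudogene counts added gave it none. SDHC (chr1:161314381-161363206), the other anchor, overlapped between groups at 39.1, 36.0 and 37.2 CPM against 35.5, 36.5 and 36.1 CPM (log2 fold change -0.06 ± 0.055, adjusted p = 0.344).

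In complex III, 10 of 15 tested genes (66.7%) were called lower and 0 higher, with a median log2 fold change of -0.30. Among all genes tested 28.7% were called lower and 27.8% higher. UQCRC1 (chr3:48599002-48610976), a core protein on the matrix side, had 123, 123 and 133 CPM in control and 92.2, 82.5 and 83.6 CPM in OC2-OE (log2 fold change -0.55 ± 0.037, SE, adjusted p = 3.20e-25). UQCR10 (chr22:29767369-29770413), a small subunit, had 73.6, 75.5 and 77.9 CPM against 54.1, 49.7 and 50.9 CPM (log2 fold change -0.55 ± 0.044, adjusted p = 2.36e-22). UQCRFS1 (chr19:29205320-29213151), the Rieske iron-sulphur protein, had 62.2, 65.9 and 65.2 CPM against 48.2, 46.5 and 46.5 CPM (log2 fold change -0.45 ± 0.046, adjusted p = 3.79e-16). They fell by 31.8%, 31.7% and 26.9%, with no overlap between groups. UQCRQ, a further small subunit, overlapped between groups at a log2 fold change of -0.05. UQCRHL, a near-identical copy of UQCRH, had 126 counts in control and 107 in OC2-OE, and pairs that match both copies were not counted, so its value is uncertain.

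In complex IV, 11 of 14 tested genes (78.6%) were called lower and 1 (7.14%) higher, with a median log2 fold change of -0.24. The shares among all genes tested were 28.7% and 27.8%. All 11 ubiquitous subunits were called lower. Of 7 tissue isoforms 2 could be tested, of which 1 was called higher and 0 lower. COX8A (chr11:63974620-63976543), a small membrane subunit, had 198, 202 and 210 CPM in control and 145, 139 and 146 CPM in OC2-OE, a log2 fold change of -0.51 ± 0.030 (SE, adjusted p = 3.99e-32). COX6A1 (chr12:120438090-120440737) had 195, 198 and 210 CPM against 156, 151 and 152 CPM (log2 fold change -0.39 ± 0.030, adjusted p = 4.46e-24). COX6B1 (chr19:35648323-35658782), which faces the intermembrane space, had 314, 314 and 306 CPM against 241, 250 and 250 CPM (log2 fold change -0.33 ± 0.025, adjusted p = 6.82e-24). The groups did not overlap in any of these genes. Of the exon bases of COX8A, 35.4% are shared with another gene on the same strand. COX4I1, COX7A2 and COX7B were called lower at log2 fold changes of -0.27, -0.32 and -0.29. COX7A2L, a factor of the supercomplexes, was at a log2 fold change of -0.09 (adjusted p = 0.0547). Over the alternatives run for it the value ranged from -0.14 to -0.04, and it was called in none of them.

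The isoform pairs of complex IV were compared side by side. NDUFA4 (chr7:10931943-10940153), first described in complex I and now counted as a subunit of complex IV, had 264, 269 and 282 CPM in control and 234, 236 and 235 CPM in OC2-OE (log2 fold change -0.21 ± 0.026, SE, adjusted p = 9.45e-12). Its paralog NDUFA4L2 (chr12:57234903-57240715), known as a hypoxia-induced gene, had 9.42, 10.5 and 10.1 CPM against 14.6, 14.9 and 14.5 CPM (log2 fold change 0.56 ± 0.092, adjusted p = 4.63e-08). NDUFA4L2 therefore rose by 47.2% while NDUFA4 fell by 13.3%, and per kilobase of exon NDUFA4L2 stayed the lower of the pair, at 5.24 CPM per kb against 68.0 CPM per kb in OC2-OE. COX4I2 (chr20:31637912-31645006), the isoform of COX4I1 known from lung, was too low to be tested with the others: it had 0 counts in all 3 control libraries and 7, 5 and 10 in OC2-OE. Against a floor of 3 counts over the control group the ratio was 6.93 on the scale of CPM. This ratio leaves out the sampling error of the 22 counts in OC2-OE. With edgeR's test on all genes with a count the adjusted p was 3.00e-05. COX4I2 enters that test only through its OC2-OE counts, so this p adds no separate support. COX7B2 had 20.2, 20.8 and 22.0 CPM in control and 18.5, 18.4 and 18.6 CPM in OC2-OE and was not called (log2 fold change -0.18 ± 0.073, adjusted p = 0.0234). COX6A2, COX7A1, COX8C and COX8BP had 0 counts in all 6 libraries, COX6B2 had 5 counts in control and 1 in OC2-OE, and ATP5MGL had 1 count in all.

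**Figure D3:**
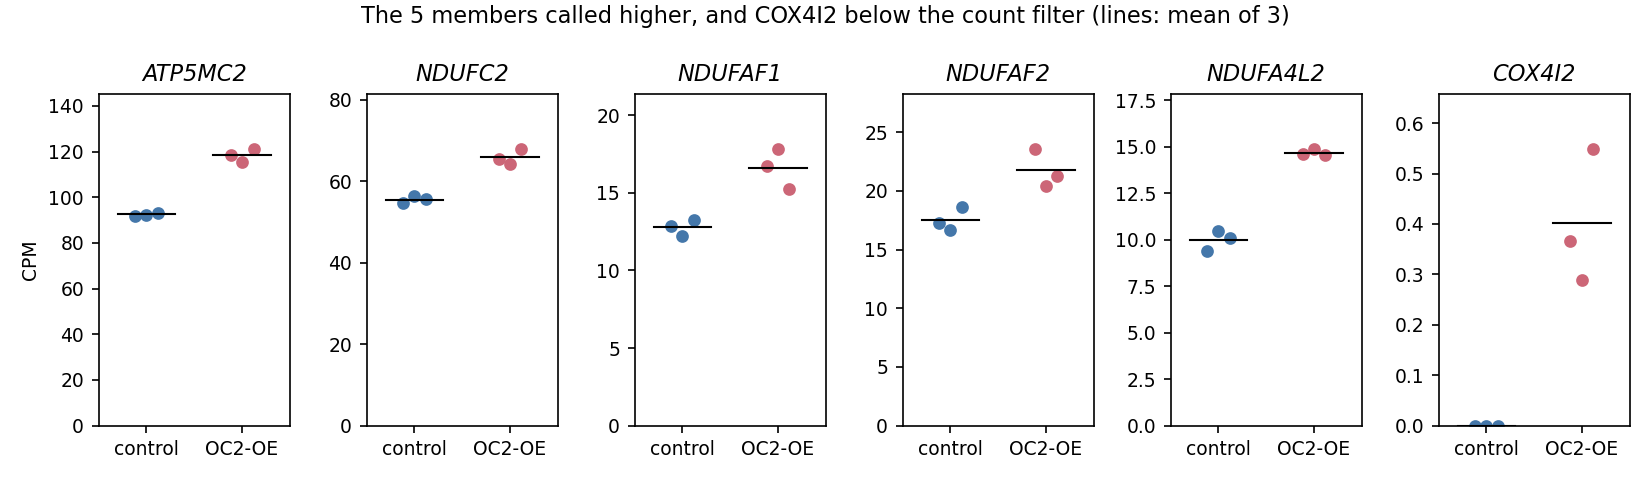
CPM (vertical axes, each from 0) of the 5 members called higher and of COX4I2 in the control and OC2-OE libraries, with a point for each library and a line at the mean of 3. In every panel the OC2-OE points lie above the control points, and COX4I2 goes from 0 to at most 0.549 CPM.

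In complex V, 16 of 18 tested genes (88.9%) were called lower and 1 (5.56%) higher, with a median log2 fold change of -0.33. For all genes tested the shares were 28.7% and 27.8%. All 5 genes of the catalytic F1 part were called lower. ATP5F1A (chr18:46080248-46104334), the alpha subunit, had 1222, 1173 and 1196 CPM in control and 852, 831 and 848 CPM in OC2-OE, a log2 fold change of -0.50 ± 0.020 (SE, adjusted p = 2.80e-48). ATP5F1B (chr12:56638175-56645984), the beta subunit that holds the catalytic sites, had 1403, 1367 and 1372 CPM against 1183, 1172 and 1186 CPM (log2 fold change -0.23 ± 0.019, adjusted p = 2.78e-21). Although alpha and beta subunits are present in equal numbers in the enzyme, their transcripts fell by 29.5% and 14.5%. ATP5F1E, ATP5F1C and ATP5F1D fell by 27.7%, 23.3% and 11.5%. ATP5F1D missed the threshold without OC2-OE replicate 1, where its log2 fold change went from -0.18 to -0.12 (adjusted p = 0.00399).

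All 5 tested subunits of the membrane part other than the c subunit were called lower, against 28.7% of all genes tested. Their median log2 fold change was -0.40. ATP5ME (chr4:672436-674330), subunit e at the dimer interface, had 225, 255 and 247 CPM in control and 152, 152 and 152 CPM in OC2-OE, a log2 fold change of -0.67 ± 0.031 (SE, adjusted p = 5.61e-31). ATP5MF (chr7:99448475-99466186), subunit f, had 110, 112 and 107 CPM against 77.3, 71.0 and 78.2 CPM (log2 fold change -0.54 ± 0.038, adjusted p = 3.88e-26). No OC2-OE library reached the lowest control library for either gene. ATP5PD, a peripheral stalk subunit, was not called, at a log2 fold change of 0.07 (adjusted p = 0.0479), but was called higher with libraries scaled by total counts alone, and ATP5IF1, the inhibitor of the enzyme's ATP hydrolysis, was called lower at -0.12.

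The 3 genes for the c subunit, ATP5MC1, ATP5MC2 and ATP5MC3, differ in the precursor they encode but give the same mature protein, the subunit of the rotor ring. ATP5MC3 (chr2:175176258-175181710) had 411, 406 and 422 CPM in control and 271, 271 and 266 CPM in OC2-OE (log2 fold change -0.62 ± 0.024, SE, adjusted p = 3.99e-48). ATP5MC1 (chr17:48892765-48895871) had 76.2, 81.3 and 77.5 CPM against 60.3, 63.5 and 64.2 CPM (log2 fold change -0.32 ± 0.042, adjusted p = 2.15e-11). ATP5MC2 (chr12:53632726-53677408) had 92.0, 92.4 and 93.1 CPM against 119, 115 and 121 CPM (log2 fold change 0.36 ± 0.035, adjusted p = 7.95e-17). The first pair fell and ATP5MC2 rose, with no overlap between groups for any of the 3 genes. Their summed level went from 584 ± 7.64 CPM (SD, n = 3) to 451 ± 0.829 CPM, a ratio of 0.771. Per exon length, ATP5MC2 made up 14.8% ± 0.0894 of the 3 genes in control and 24.5% ± 0.569 in OC2-OE, and ATP5MC3 made up 66.5% ± 0.732 and 56.1% ± 0.788. For ATP5MC1 the shares were 18.7% ± 0.686 and 19.4% ± 0.593. The two-sided exact permutation test gave p = 0.1 for ATP5MC2 and for ATP5MC3, the smallest that 3 against 3 libraries allow, and p = 0.2 for ATP5MC1 (0.15, 0.15 and 0.2 after Benjamini-Hochberg adjustment over the 3 genes).

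**Figure D4:**
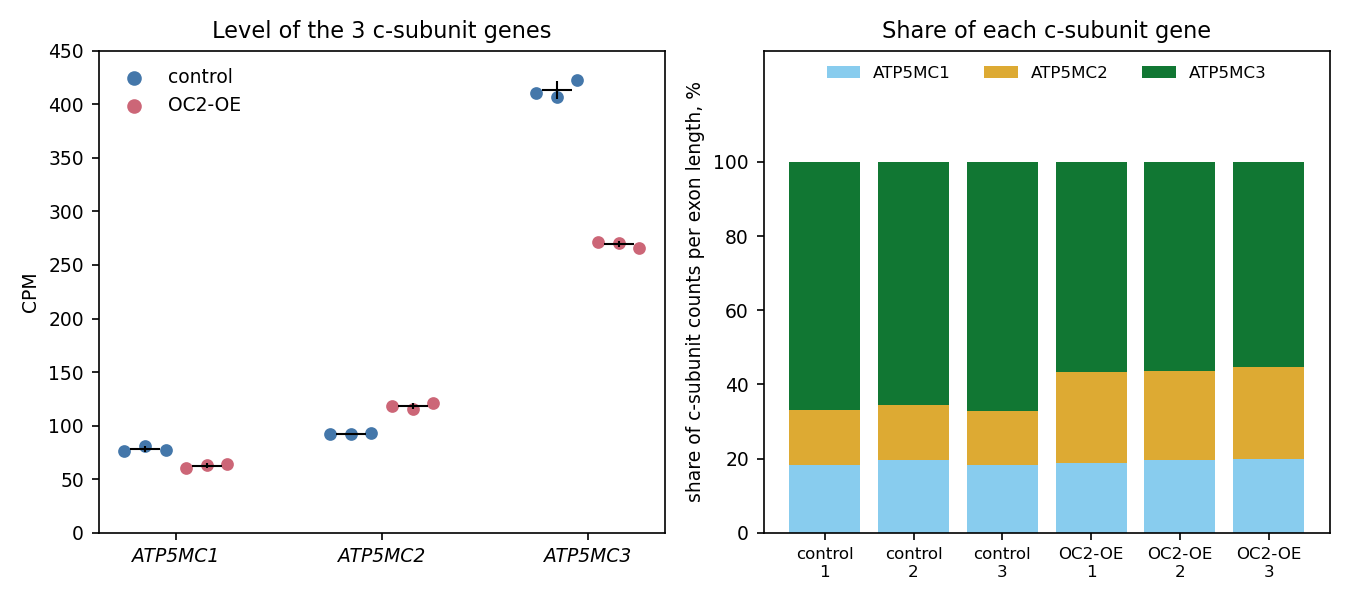
Left, CPM of the 3 c-subunit genes in every library with the mean (horizontal line) and SD (vertical line). Right, the share of each gene in the summed counts per exon length, in percent, for each library, with ATP5MC2 at 14.7% to 14.9% in control and 23.9% to 25.0% in OC2-OE.

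Members at higher levels were called more often, as were genes of the whole table. With the tested members split by level into 3 groups of 32, the number called was 15 (46.9%) in the group with the lowest levels, 27 (84.4%) in the middle group and 29 (90.6%) in the group with the highest, where 0 were called higher. Over all genes tested with levels in the same ranges, 57.6%, 71.2% and 78.7% were called. Across the 96 tested members, which share the same libraries, the log2 fold change had a Spearman rho of -0.27 with the level (-0.09 over all genes tested) and 0.19 with exon length. Genes no longer than the members' median exon length were called lower in 25.2% and higher in 17.9% of cases over the whole table.

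The partner subunits encoded in mitochondrial DNA moved in both directions. Of 13 such genes, 7 were called higher (53.8%) and 2 lower (15.4%), against 27.8% and 28.7% of all genes tested, and their summed level was 22536, 21993 and 20450 CPM in control and 24856, 24822 and 25348 CPM in OC2-OE, a ratio of 1.15. MT-ND1, a complex I subunit, rose from 1476 ± 73.5 CPM (SD, n = 3) to 2569 ± 29.1 CPM (log2 fold change 0.80, adjusted p = 2.35e-22). MT-ND5, the distal proton pump of complex I, rose from 1620 ± 111 CPM to 2588 ± 17.3 CPM (log2 fold change 0.68, adjusted p = 2.79e-04), a call lost without control replicate 2 (adjusted p = 0.00278) or OC2-OE replicate 3 (adjusted p = 0.00129) and in a fit with the replicate number as a block (adjusted p = 0.00129), with log2 fold changes still at 0.68. MT-CO3, a complex IV subunit, fell from 2117 ± 85.4 CPM to 1436 ± 20.5 CPM (log2 fold change -0.56, adjusted p = 7.17e-39). The libraries were made from poly(A) RNA.

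Other genes of the pathway were described by the same calls. The TCA cycle, which supplies NADH and succinate to complexes I and II, had 10 of 13 genes called lower and 1 higher, with a median log2 fold change of -0.29 (76.9% and 7.69%, against 28.7% and 27.8% of all genes tested). IDH3B, SUCLA2 and MDH2 were at -0.50, -0.47 and -0.46, and citrate synthase (CS) was the gene called higher, at 0.14. Further assembly factors had 14 of 45 genes called lower (31.1%) and 10 higher (22.2%), shares near those of all genes tested (28.7% and 27.8%), with a median of -0.09. NUBPL, which delivers iron-sulphur clusters to complex I, was at 0.84, and the complex IV factors CMC2 and COA3 were at -0.81 and -0.77. The complex III factors TTC19, LYRM7 and BCS1L were all called higher, at 0.41, 0.27 and 0.24. Electron carriers and genes of coenzyme Q synthesis had 4 of 14 called lower (28.6%) and 3 higher (21.4%), also near the shares of all genes. COQ10A and COQ4 were at 1.00 and 0.69, and PDSS2, which acts in making the side chain of coenzyme Q, was at -0.55. Of 12 factors of mitochondrial biogenesis, 6 were called lower (50%) and 1 higher (8.33%). The coactivators PPARGC1A and PPARGC1B were both at -0.55 and GABPB1, a subunit of GABP, at -0.49. GABPA, the DNA-binding subunit of GABP, and YY1 were not called, at 0.10 (adjusted p = 0.110) and -0.10 (adjusted p = 0.00421). NRF1 and the mitochondrial DNA-binding factor TFAM were both at -0.30, whereas the mitochondrial RNA polymerase POLRMT was called higher at 0.17.

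**Figure D5:**
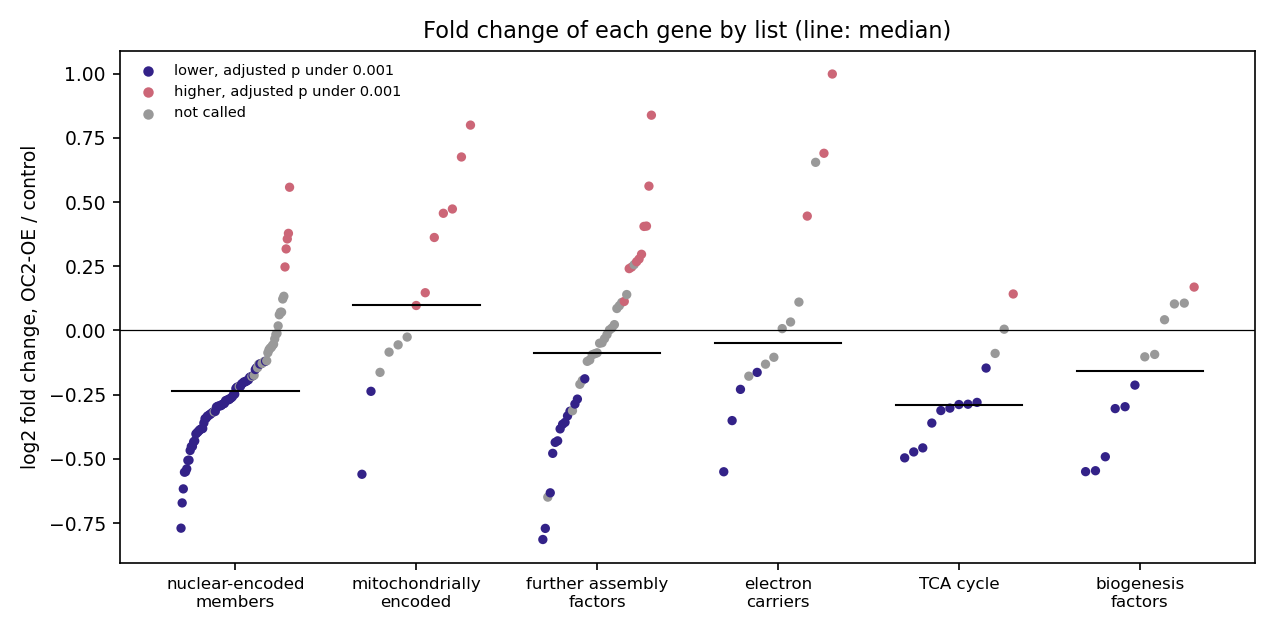
Log2 fold change (vertical axis) of each tested gene by list, sorted within a list, with a line at the median and colours for the call at an adjusted p under 0.001. The median is -0.24 for the nuclear-encoded genes and 0.10 for the mitochondrially encoded subunits.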

How the data were processed

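RNA-Seq was performed on 6 libraries (3 control, 3 OC2-OE). Stranded poly(A) libraries were aligned by the authors with STAR 2.7.9a, and read pairs were counted with featureCounts 1.6.0, as given in the submitters' processing notes and the file headers (GRCh38, GENCODE release 42). The deposited values are raw counts per gene, with the exons of a gene summed and no normalization or filter, and the deposited exon length in bases was used as another measure, only to set levels per kilobase and shares per length. Pairs that matched several genes or places were not counted, which lowers genes with overlapping neighbours or copies. Genes were named through the reference's table of symbols, which matched 62672 of 62696 identifiers.

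Low counts were filtered with filterByExpr, libraries were scaled by TMM, and groups were compared with edgeR 4.0.16 (robust quasi-likelihood test, no covariate) in R 4.3.3, with Benjamini-Hochberg adjustment over 17307 genes and the study's threshold of 0.001. CPM values relate each count to the TMM-scaled library size. Shares of c-subunit genes were compared by an exact permutation test. The code was tested on simulated data. Depth limits the precision of genes with few counts, and the common biological coefficient of variation was 2.20%. Alternatives were DESeq2 1.42.0, limma 3.58.1 (voom), other scalings, filters and thresholds, a replicate block, pseudogene counts added, other groupings of members and leaving out each library. Named genes were, per complex, the 3 largest changes in each direction past the threshold, all of complex II, the core and F1 subunits and isoform pairs. On each further list they were the 3 largest changes past the threshold. Genes named beyond these (CS, NRF1, TFAM, POLRMT, GABPA, YY1, TTC19, LYRM7, BCS1L, NDUFC1, NDUFAF5, NDUFAF6, UQCRQ, UQCRHL, ATP5PD and ATP5IF1, and those shown by sequence) were chosen after their values were seen. Members and lists were chosen with earlier results of these data known. A member that counts in the totals is not reported by name here.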

Additional observations from a re-analysis of the deposited data

How the results depend on the processing

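Of the 55 genes named by rule, none changed direction in the alternatives run for them (other scalings, filters and tools, the replicate block, added pseudogene counts and leaving out each library), and 48 kept their side of the threshold in these (33 of 39 members). The genes named beyond the rule were not rerun one by one, nor was any single gene under the other thresholds. A required absolute log2 fold change of at least 1 left 2999 genes called and 0 members called, 0 higher and 0 lower. At an adjusted p under 0.05, 82 of 96 members were called, 74 lower and 8 higher, and 71.4% of all genes tested. With libraries scaled by total counts alone, 56 members were called lower and 6 higher (ATP5PD was added). Of the genes called in that setting, 45.3% were lower over all genes and 90.3% over members. The median log2 fold change there was -0.19 over members. It was -0.16 for complex II, -0.25 for complex III, -0.19 for complex IV and -0.28 for complex V. The median of all genes shifted by 0.05 with this scaling. With upper-quartile scaling the median was -0.19 over members and -0.20 for complex IV, and with DESeq2 -0.25 and -0.26. Counting NDUFA4 and NDUFA4L2 with complex I gave -0.26 for complex IV. Without division by exon length the share of ATP5MC2 rose by 10.4 percentage points in place of 9.71. The cause of these shifts was not tested. Leaving out each library gave 63 to 72 members called (59 to 67 lower, 4 to 5 higher) and a median over members of -0.25 to -0.22. Of the members called lower, 56 to 66 were shared with the alternatives that kept the threshold. NDUFAF2 was also lost with DESeq2 (adjusted p = 0.00150), ATP5F1D with DESeq2 (0.00866) and with total counts (0.00116), and NDUFS7 with total counts and upper-quartile scaling (0.00279 and 0.00151). With the replicate number as a block, 71 members were called, 66 lower and 5 higher, with a median of -0.24. Deviations of same-numbered libraries from their group means had correlations of -0.0033, 0.020 and 0.015 over the genes tested. Whether same-numbered libraries were prepared together was not stated, and correlations over all genes cannot decide it. Of the 55 genes named by rule only MT-ND5 changed its call under the block.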
